A study of Mus musculus with 8 samples.

Results

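The transcripts of sulfur amino acid and glutathione metabolism were compared between the corneas of a pair of inbred mouse strains. The group held 57 genes, chosen by name from the methionine cycle, transsulfuration, sulfide oxidation, cysteine catabolism, glutathione synthesis, the glutathione peroxidases and transferases, and the NRF2 and thioredoxin systems. All 57 were found among the 54532 genes of the expression table by matching gene identifiers to symbols of a GRCm38 annotation, 1 of them under a newer symbol (Sqor for Sqrdl). Total RNA of naive corneas was sequenced from 4 BALB/c corneas and 4 C57BL/6N corneas, all from male mice without treatment. BALB/c is an albino inbred strain and C57BL/6N a black one, so the groups differ at very many loci and not at a single allele. The study asked which genes could account for differences in corneal lymphatic vessels between these strains, and Cbs was the candidate it took further. It also silenced Cth and Mpst in human lymphatic endothelial cells, as other enzymes that form hydrogen sulfide, and saw no effect on proliferation. The labels do not say whether the corneas of a strain came from separate animals, so p-values measure the spread between these samples, which may in part be technical.

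Methionine is turned into S-adenosylmethionine, the methyl donor of the cell, and its product homocysteine is either methylated back to methionine or passed on to cysteine by transsulfuration. Cysteine feeds the synthesis of glutathione, the main thiol of cells, and is also the source of taurine and of hydrogen sulfide, which mitochondria oxidise. In the cornea, which is exposed to light and oxygen, glutathione serves its peroxidases, which remove peroxides, and its transferases, which attach glutathione to reactive compounds.

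The values are regularised log (rlog) values on a log2 scale, normalised for library size by the authors. Differences are BALB/c minus C57BL/6N throughout. The rlog transformation draws the values of a gene towards their mean where few reads were counted, so a difference understates the change of a weakly expressed gene. Genes whose rlog values averaged 0 or more were tested, 25402 in all, and those with an adjusted p of 0.01 or less in limma were called. The depth of the libraries is unknown, since the table holds no counts, and levels were not compared between genes, since rlog values are not scaled by gene length.

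Some corneas stood apart from the others of their strain. The mean of 8 markers of stromal keratocytes, the resident cells of the corneal stroma, was 11.08 in BALB/c replicate 2, 10.27 in C57BL/6N replicate 3 and 10.39 in C57BL/6N replicate 4, against 12.69 to 12.97 in the other 5 corneas. The mean of 3 corneal endothelium markers was 12.09, 11.96 and 11.67 in these corneas, against 12.66 to 13.02 in the others. That of 8 macrophage markers was 6.88, 6.7 and 6.62, against 7.26 to 7.5. These 3 corneas are called stroma-poor below. The mean of 8 lens markers was 7.2 in BALB/c replicate 1 and 6.38 in BALB/c replicate 4, against 4.47 to 5.12 in the other corneas, and the mean of 7 pigment cell markers was 9.21 and 10.06 against 5.64 to 7.62. The 7 markers of corneal epithelium averaged 16.04 to 16.3 in every cornea and none was called, so the labelled tissue was present in all libraries. Of 6 conjunctiva markers, 4 were called lower in BALB/c (Krt13, Krt4, Krt19 and Muc4), while Krt8 and Muc5ac had differences of 0.4 and 2.19. The mean of the 6 was 8.81 to 9.29 in BALB/c and 9.4 to 9.58 in C57BL/6N, so this list separated the strains, and its part in the members' differences was not tested. In bulk tissue, fewer cells of a type and less RNA per cell cannot be told apart.

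Between the strains, 12 of the 56 members tested were called (21.4%), against 5.74% of all genes tested. BALB/c corneas were higher for 5 members and lower for 7, beside 2.83% and 2.91% of all genes. The corneas of the strains did not overlap for 20 members (35.7%), against 18.3% of all genes. The members' median difference was 0.09 and their median absolute difference 0.26, against 0.01 and 0.09 over all genes. That background includes weakly expressed genes, whose differences rlog draws towards 0, and the overlap and medians were not recomputed without them. In a fit of only the 18762 genes that averaged log2(10) or more, 8.3% of genes and the same 12 members were called. There were 15 members with a near-identical copy, or at least a near-identical stretch, in a transcript of another gene, with which they could share reads. For Gclm, Slc7a11 and Bhmt2 the matches were short stretches, such as 287 bases with Ppia, 373 with Tuba1b and 233 with CT033752.2. Without these 15, 11 of 41 members tested were called. Without Cbs and Cth, 10 of 54 members were called (18.5%), 5 in each direction, with a median of 0.11. The remaining member, Mat1a, the liver form of methionine adenosyltransferase, lay between -2.1 and -2.09 in all corneas and was below the limit for the test.

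**Figure D1:**
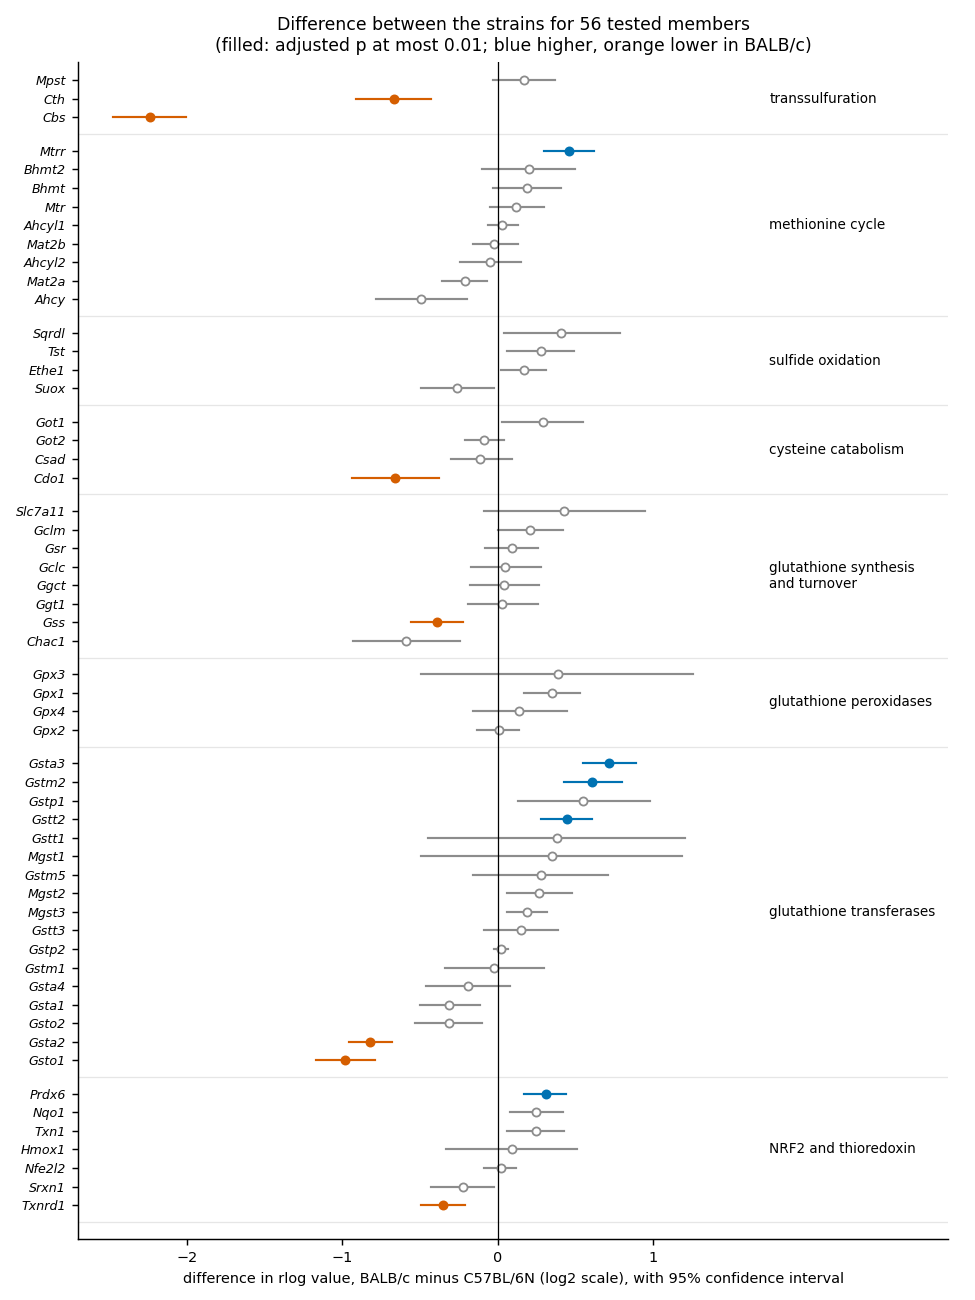
Difference in rlog value between BALB/c and C57BL/6N corneas (log2 scale, 4 corneas each) for the 56 members tested, grouped by role, with bars for the 95% confidence interval from limma. Filled points are the 12 called members, of which Cbs at -2.24 lies farthest from 0, and most open points lie within 0.5 of 0.

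The number of calls depended on the p-values, the scaling and the corneas included. With the values of each cornea centred on their median, 6 members were called, 2 higher and 4 lower, against 3.77% of all genes. Quantile normalisation called 3 members higher and 7 lower (17.9%), against 5.68% of all genes. A block for the replicate number called 1 higher and 4 lower (8.93%), against 2.18% of all genes. Without Cbs and Cth the block called 3 of 54 members (5.56%). The study recalibrated the p-values of its own test, DESeq2, with fdrtool, and still reported called genes, Cbs among them. Here the limma p-values were rescaled to an empirical null in another way, and none of the 25402 genes was called. At an unadjusted p under 0.05, 1690 genes and 12 members passed there, and the smallest adjusted p over all genes was 0.151. Leaving out each cornea in turn, limma called between 5 and 10 members, and each time fewer of all genes than with every cornea included. In all 8 fits 5 members kept their call, namely Cbs, Gsta2, Gsta3, Gstm2 and Gsto1. Without the 3 stroma-poor corneas 4 members were called (Cbs, Gsta2, Gsta3 and Gsto1), against 3.35% of all genes. Without the 2 corneas with lens and pigment transcripts the count was 3 (Cbs, Gsta2 and Gsto1), against 1.76% of all genes. Each of the 12 kept its direction in every one of these fits. Leaving out corneas could not change it, because the strains did not overlap for any of the 12. The block and the empirical null leave the differences as they are. The kept direction in those fits therefore adds no support.

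**Figure D2:**
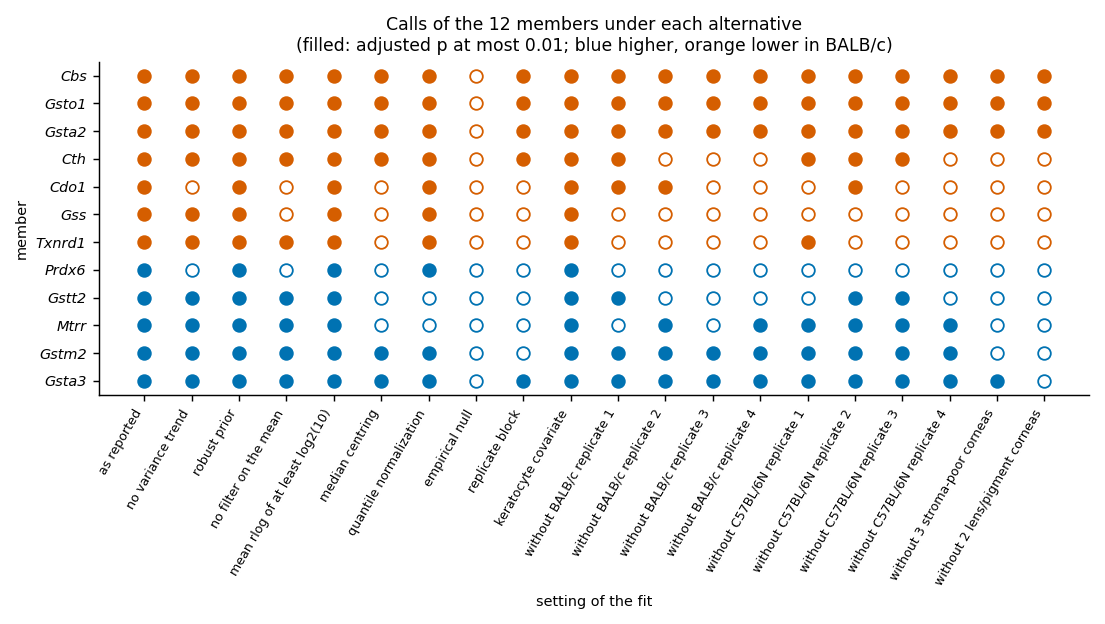
Calls of the 12 members (rows) under the settings tried (columns). Filled circles had an adjusted p of 0.01 or less in limma, with blue for higher and orange for lower in BALB/c. No circle changes colour along its row, which leaving out corneas could not bring about where the strains do not overlap. Gss and Prdx6 are open in each of the 8 columns that leave out 1 cornea.

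In transsulfuration, both enzymes of the pathway from homocysteine to cysteine were lower in BALB/c corneas. Cbs encodes cystathionine beta-synthase, which joins homocysteine and serine and can also release hydrogen sulfide. Its gene lies at chr17:31608894-31637238 on the minus strand (GRCm38). The BALB/c corneas had Cbs values of 4.94, 5.22, 4.98 and 5.19, and the C57BL/6N corneas 7.52, 7.26, 7.26 and 7.26. Every BALB/c cornea lay more than 2 log2 units below every C57BL/6N cornea. The difference was -2.24 (standard error 0.104, 95% confidence interval -2.48 to -2.01, adjusted p = 1.28e-06 in limma). It was -2.35 without the stroma-poor corneas and -2.23 without those with lens and pigment transcripts. From counts with DESeq2 the study reported a much larger drop of Cbs, so the rlog difference and its interval may understate the fold change. The stretch upstream of the RefSeq start of Cbs is shown because this gene had the largest difference of the members. It covers 217 bases at chr17:31637239-31637455 on the minus strand of GRCm38.p6, a reference of C57BL/6J, with 65.4% G and C and 15 CpG pairs.
Cbs upstream: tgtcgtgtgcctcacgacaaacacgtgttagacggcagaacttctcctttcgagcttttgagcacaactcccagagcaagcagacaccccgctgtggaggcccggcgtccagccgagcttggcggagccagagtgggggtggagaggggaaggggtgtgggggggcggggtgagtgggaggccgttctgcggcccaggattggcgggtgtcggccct

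Cth, whose product cystathionine gamma-lyase splits cystathionine to give cysteine, lies at chr3:157894248-157925077. Its values were 7.72, 7.51, 7.39 and 7.4 in BALB/c and 8.38, 8.12, 8.0 and 8.22 in C57BL/6N. The strains did not overlap, although the nearest corneas, BALB/c replicate 1 and C57BL/6N replicate 3, were close. Cth was lower by a difference of -0.67 (standard error 0.107, adjusted p = 0.00302 in limma), and the call held in 4 of the 8 fits that left out 1 cornea. Mpst, the mercaptopyruvate sulfurtransferase that makes sulfide by another route, ranged from 11.1 to 11.47 in BALB/c and from 11.03 to 11.32 in C57BL/6N. These ranges overlapped and the difference was 0.17 (95% confidence interval -0.03 to 0.37, adjusted p = 0.297 in limma).

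In the methionine cycle, 1 of 9 members tested was called (11.1%, against 5.74% of all genes), and the group's median difference was 0.03. The called gene was Mtrr at chr13:68560780-68582149, which encodes methionine synthase reductase, the enzyme that keeps methionine synthase active. Mtrr measured 9.02, 8.97, 9.05 and 8.92 in BALB/c corneas and 8.56, 8.42, 8.49 and 8.66 in C57BL/6N corneas. All BALB/c corneas were above all C57BL/6N corneas, by a difference of 0.46 (standard error 0.0715, adjusted p = 0.00284 in limma). The Mtrr call held in 6 of the 8 fits that left out 1 cornea, but not after median centring or quantile normalisation. Mtr, the methionine synthase that Mtrr serves, had a difference of 0.12 (95% confidence interval -0.05 to 0.3). Bhmt and Bhmt2, which methylate homocysteine with betaine or S-methylmethionine, had low values of 2.13 to 2.54 and 2.75 to 3.4. Their highest values were in the 2 corneas with lens and pigment transcripts, and without those their differences were -0.01 and -0.04 in place of 0.19 and 0.2.

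The genes of the step that makes S-adenosylmethionine and of the step that removes its product were not called with all 8 corneas. Mat2a, the form of methionine adenosyltransferase found outside the liver, measured 12.04 to 12.12 in BALB/c and 12.12 to 12.38 in C57BL/6N, a difference of -0.21 (adjusted p = 0.0618 in limma). Without C57BL/6N replicate 3 the difference was -0.27 and was called (adjusted p = 0.00604). Mat2b, its regulatory subunit, had a difference of -0.02 (95% confidence interval -0.16 to 0.13). Ahcy, which hydrolyses S-adenosylhomocysteine, had the largest difference of the cycle. Its values were 4.41, 4.64, 4.28 and 4.24 in BALB/c and 4.78, 5.09, 4.62 and 5.02 in C57BL/6N. The strains met at BALB/c replicate 2 and C57BL/6N replicate 3, and the difference of -0.49 was not called (adjusted p = 0.0411 in limma). Ahcy reads are uncertain, because Gm4737 on chromosome 16 matches Ahcy at 99.7% over 2083 bases. Gm4737 had a mean rlog value of 8.51 and a difference of 0.35, opposite in sign to that of Ahcy, while the pseudogene Gm9826 had a difference of -0.86. Ahcyl1 and Ahcyl2, relatives of Ahcy, had differences of 0.03 and -0.05.

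None of the 4 genes of sulfide oxidation was called, and their median difference was 0.22. Sqor (Sqrdl), the mitochondrial quinone oxidoreductase that takes up sulfide, had the largest difference. It measured 6.46, 6.11, 6.32 and 6.45 in BALB/c corneas and 6.16, 6.24, 5.81 and 5.48 in C57BL/6N corneas. BALB/c replicate 2 lay within the range of the other strain, and the difference was 0.41 (95% confidence interval 0.04 to 0.79, adjusted p = 0.169 in limma). Ethe1, the persulfide dioxygenase, ranged from 8.24 to 8.38 in BALB/c and from 8.1 to 8.19 in C57BL/6N without overlap, a difference of 0.17 that was not called. Tst, the thiosulfate sulfurtransferase, had a difference of 0.28 and lies next to Mpst on chromosome 15. Suox, the sulfite oxidase of the last step, had a difference of -0.26 (adjusted p = 0.166 in limma). With the keratocyte mean as a covariate Suox was called, with a difference of -0.34.

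Of the 4 genes of cysteine catabolism, 1 was called (25.0%, against 5.74% of all genes), and this was Cdo1, lower in BALB/c. Cdo1 at chr18:46713193-46728395 encodes cysteine dioxygenase, which commits cysteine to taurine and sulfate. Its values were 12.43, 12.42, 12.08 and 11.93 in BALB/c and 12.87, 12.69, 12.88 and 13.06 in C57BL/6N. The BALB/c corneas were all lower but spread over a wider range. The difference was -0.66 (standard error 0.123, adjusted p = 0.0076 in limma), and it passed the threshold in 3 of the 8 fits that left out 1 cornea. Csad, which makes taurine from the product of Cdo1, had a difference of -0.11 (95% confidence interval -0.3 to 0.09). Got1 and Got2, the cytosolic and mitochondrial aspartate aminotransferases that also act on cysteine and its products, had differences of 0.29 and -0.09. The processed copy Got2-ps1, which may share reads with Got2, was called lower with a difference of -0.34.

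For glutathione synthesis and turnover, 1 of 8 members was called (12.5%, against 5.74% of all genes), and the median difference was 0.05. The called gene was Gss at chr2:155563181-155592810, the glutathione synthetase of the second step. Gss measured 9.75, 9.64, 9.87 and 9.73 in BALB/c and 10.23, 10.04, 10.04 and 10.24 in C57BL/6N. The strains did not overlap, and the difference was -0.39 (standard error 0.0739, adjusted p = 0.00821 in limma). The call was lost in each of the 8 fits that left out 1 cornea, where the adjusted p was between 0.0116 and 0.029. Exons of Gss overlap those of Acss2 on the opposite strand, which had a difference of -0.34, and the sources used here do not state whether counting used the strand. Ggt7, the next gene beyond Acss2 and a relative of the transpeptidase Ggt1, was called lower with a difference of -1.0.

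Neither gene of the rate-limiting first step of glutathione synthesis was called. Gclc, the catalytic subunit of glutamate-cysteine ligase, had a difference of 0.05 (95% confidence interval -0.17 to 0.28). Gclm, its modifier subunit, had one of 0.21 (adjusted p = 0.204 in limma). Among pseudogenes that share a stretch of 244 bases with Gclm, Gm10123 had a difference of -0.82 and Gm9234 one of 2.92. Slc7a11, which imports cystine, ranged from 5.44 to 6.55 in BALB/c and from 5.12 to 5.82 in C57BL/6N. The values of Slc7a11 overlapped widely, and its difference of 0.43 had a confidence interval of -0.09 to 0.95. Its highest values, 5.97 and 6.55, were those of the 2 corneas with lens and pigment transcripts, and the difference was 0.1 without them. Gsr, which reduces oxidised glutathione, Ggct, which breaks down its gamma-glutamyl products, and Ggt1, which cleaves it outside the cell, had differences of 0.09, 0.04 and 0.03.

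Chac1, which degrades glutathione inside cells and is a target of the amino acid stress response, had the largest difference of the synthesis and turnover genes. The values were 11.41, 11.58, 11.64 and 11.64 in BALB/c and 12.22, 11.69, 12.16 and 12.55 in C57BL/6N. C57BL/6N replicate 2 lay close to the BALB/c corneas and the other corneas of its strain well above. The difference of -0.59 was not called (adjusted p = 0.0383 in limma), but it was without C57BL/6N replicate 2 (adjusted p = 0.00302).

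None of the 4 glutathione peroxidases was called. All 4 had differences above 0, with a median of 0.25, although Gpx2 was at -0.07 after median centring. Gpx1, the abundant cytosolic form, ranged from 12.72 to 13.0 in BALB/c and from 12.38 to 12.65 in C57BL/6N. The strains were separated at Gpx1, with a difference of 0.35 (adjusted p = 0.0199 in limma), which became 0.29 with an adjusted p of 0.000823 once the keratocyte mean was a covariate in limma. Gpx3, the secreted form, measured 6.15, 4.9, 5.29 and 7.01 in BALB/c and 5.62, 5.61, 5.38 and 5.2 in C57BL/6N. Its high values were those of the 2 corneas with lens and pigment transcripts, and the difference of 0.39 became -0.36 without them. Gpx4, which reduces lipid peroxides in membranes, had a difference of 0.14, and its processed copy Gpx4-ps2, with a mean rlog value of 12.05, may share its reads. Gpx2, the epithelial form known from the gut, had a difference of 0.01 (95% confidence interval -0.13 to 0.14).

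The glutathione transferases, the largest group, held the most calls, 5 of 17 members (29.4%), against 5.74% of all genes. Of the 5, 3 were higher and 2 lower in BALB/c, and the group's median difference was 0.19. Both directions occurred within the alpha class, where Gsta2 was lower and Gsta3 higher. Gsto1 at chr19:47854970-47864790 encodes an omega class transferase that also reduces dehydroascorbate, and had the largest difference of the family. The BALB/c corneas measured 17.25, 17.36, 17.43 and 17.31 and the C57BL/6N corneas 18.2, 18.14, 18.4 and 18.54. All C57BL/6N corneas were higher, and the difference was -0.98 (standard error 0.0854, 95% confidence interval -1.17 to -0.79, adjusted p = 7.01e-05 in limma). It was -0.84 without the stroma-poor corneas and -0.92 without those with lens and pigment transcripts. The neighbouring Gsto2, which begins within 1 kb of the end of Gsto1, had a difference of -0.31 (adjusted p = 0.0696 in limma).

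Gsta2 at chr9:78331018-78355788 had values of 9.7, 9.84, 9.74 and 9.73 in BALB/c and 10.63, 10.48, 10.53 and 10.66 in C57BL/6N. Within each strain the corneas were close together, and the difference was -0.82 (standard error 0.0611, adjusted p = 2.59e-05 in limma). Reads of Gsta2 are uncertain with respect to its near-identical neighbour Gsta1, which measured 4.62 to 4.86 in BALB/c and 4.94 to 5.15 in C57BL/6N, with a difference of -0.31. The further copies Gm10639 and Gm3776 on the same chromosome had differences of 0.04 and -0.03. Gsta3 at chr1:21240589-21265661 went the other way from Gsta2. Its values were 12.26, 12.28, 12.1 and 12.13 in BALB/c and 11.49, 11.29, 11.52 and 11.6 in C57BL/6N. Every BALB/c cornea was higher, with a difference of 0.72 (standard error 0.0743, adjusted p = 0.000221 in limma). Without the corneas with lens and pigment transcripts the size of the Gsta3 difference was again 0.72, and its adjusted p was 0.0113 in limma. Gsta4, the alpha form that acts on lipid aldehydes, ranged from 16.16 to 16.69 over all corneas, with a difference of -0.19 (adjusted p = 0.382 in limma).

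The mu and theta classes each held 1 called gene. Gstm2 at chr3:107981702-107986453 measured 9.26, 9.28, 9.16 and 9.31 in BALB/c and 8.75, 8.56, 8.77 and 8.48 in C57BL/6N. The C57BL/6N corneas were lower throughout, and the difference was 0.61 (standard error 0.0819, adjusted p = 0.00113 in limma). Gstm1 and Gstm5 of the same cluster had differences of -0.02 and 0.28. Gstt2 at chr10:75831114-75837424 measured 8.67, 8.79, 8.76 and 8.81 in BALB/c and 8.32, 8.34, 8.41 and 8.17 in C57BL/6N. These groups were separate as well, with a difference of 0.45 (standard error 0.0725, adjusted p = 0.0035 in limma), called in 3 of the 8 fits that left out 1 cornea. Its neighbours Gstt1 and Gstt3 had differences of 0.38 and 0.15.

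The other transferases were not called. Gstp1, the pi class form, ranged from 7.57 to 8.29 in BALB/c and from 7.06 to 7.68 in C57BL/6N, with a difference of 0.55 (95% confidence interval 0.13 to 0.98, adjusted p = 0.103 in limma). The processed copy Gstp-ps, with a mean rlog value of 10.46, may share reads with Gstp1 and with Gstp2, which was near 0 in all corneas at 0.42 to 0.49. The membrane-bound Mgst1, Mgst2 and Mgst3 had differences of 0.35, 0.27 and 0.19. Mgst2 and Mgst3 separated the strains, while Mgst1 was highest in the 2 corneas with lens and pigment transcripts, and its difference was -0.26 without them.

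**Figure D3:**
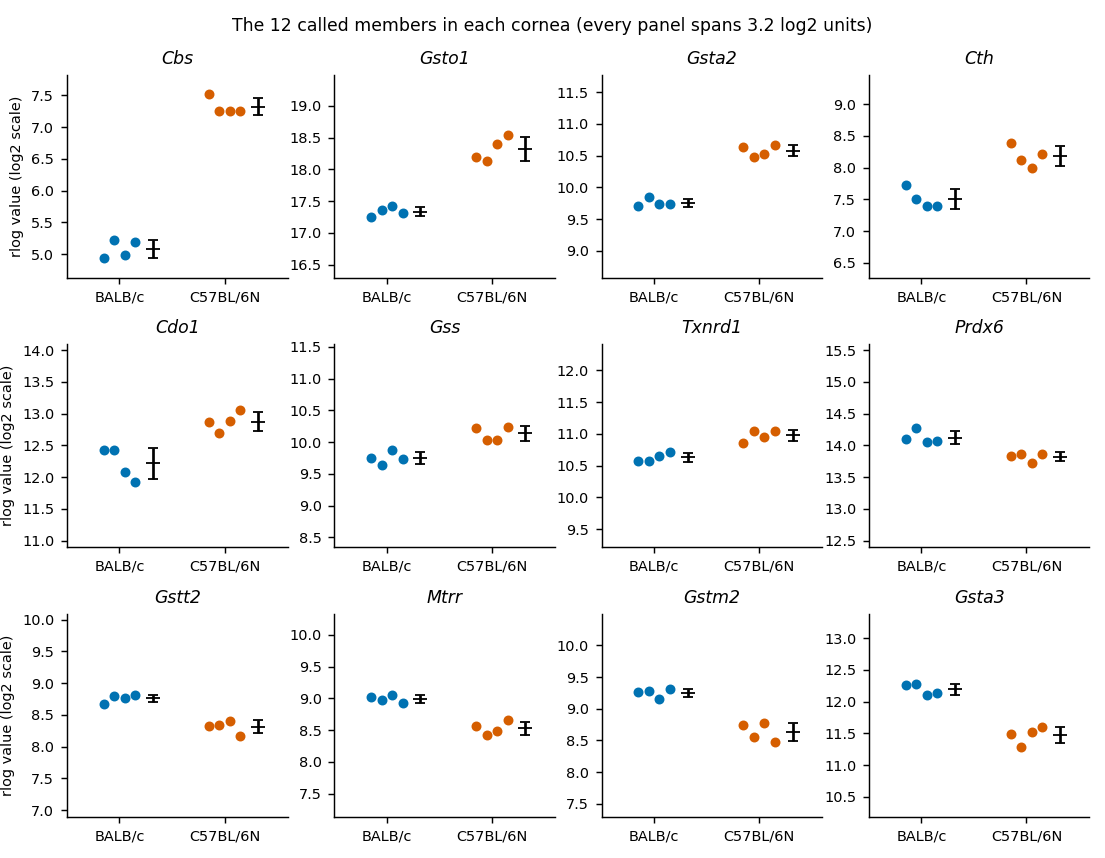
rlog values (log2 scale) of the 12 called members in each BALB/c (blue) and C57BL/6N (orange) cornea, with the mean and SD of 4 corneas in black. Every panel spans the same number of log2 units, and in each panel the 4 corneas of one strain lie wholly above those of the other.

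Among genes of the NRF2 and thioredoxin systems, 2 of 7 members were called (28.6%, against 5.74% of all genes). Txnrd1 was lower and Prdx6 higher in BALB/c. Txnrd1 at chr10:82833951-82897712 encodes the cytosolic thioredoxin reductase. It measured 10.58, 10.57, 10.66 and 10.71 in BALB/c and 10.86, 11.05, 10.95 and 11.05 in C57BL/6N. The strains did not overlap, and the difference was -0.35 (standard error 0.062, adjusted p = 0.00577 in limma). The Txnrd1 call held in 1 of the 8 fits that left out 1 cornea. Prdx6 at chr1:161240112-161251219, a peroxiredoxin that uses glutathione, measured 14.1, 14.27, 14.05 and 14.07 in BALB/c and 13.83, 13.86, 13.72 and 13.87 in C57BL/6N. All BALB/c corneas were higher, by 0.31 (standard error 0.0592, adjusted p = 0.00917 in limma), and no fit that left out 1 cornea called it.

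Nfe2l2 encodes NRF2, the factor that induces many glutathione genes under oxidative stress. Its values were 11.8 to 11.91 in BALB/c and 11.81 to 11.89 in C57BL/6N, and the 95% confidence interval of the difference was -0.09 to 0.12. Known targets of NRF2 differed in sign. Nqo1, a quinone reductase, had a difference of 0.25 with separated strains (adjusted p = 0.0668 in limma), and Txn1, thioredoxin itself, also one of 0.25 (adjusted p = 0.0938). Hmox1, the haem oxygenase, had a difference of 0.09 and Srxn1, the sulfiredoxin, one of -0.22. For each of the 12 called members the exact two-sided permutation test gave p = 0.0286, the smallest that 4 against 4 corneas allow. Every gene whose strains do not overlap gets this p, so 20 members and 18.3% of all genes had it. It therefore adds no support to the calls.

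The stretches upstream of the RefSeq starts of Gsto1, Gsta2 and Gsta3 are shown because, after Cbs, these had the largest absolute differences of the called members with a window in the RefSeq table. They are 247 bases at chr19:47854723-47854969 on the plus strand, 227 bases at chr9:78347169-78347395 on the minus strand and 250 bases at chr1:21240335-21240584 on the plus strand, from RefSeq (GRCm38.p6). Capitals mark the core of the antioxidant response element, to which NRF2 binds, written TGACNNNGC and searched on both strands.
Gsto1 upstream: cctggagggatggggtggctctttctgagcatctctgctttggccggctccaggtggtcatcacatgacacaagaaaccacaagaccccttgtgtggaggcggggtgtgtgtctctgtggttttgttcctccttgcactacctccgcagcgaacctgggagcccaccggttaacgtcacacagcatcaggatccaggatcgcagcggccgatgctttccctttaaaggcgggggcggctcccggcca
Gsta2 upstream: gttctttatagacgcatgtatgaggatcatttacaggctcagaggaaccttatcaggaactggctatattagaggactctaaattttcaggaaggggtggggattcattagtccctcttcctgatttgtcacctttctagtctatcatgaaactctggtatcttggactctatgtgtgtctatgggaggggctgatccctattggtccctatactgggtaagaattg
Gsta3 upstream: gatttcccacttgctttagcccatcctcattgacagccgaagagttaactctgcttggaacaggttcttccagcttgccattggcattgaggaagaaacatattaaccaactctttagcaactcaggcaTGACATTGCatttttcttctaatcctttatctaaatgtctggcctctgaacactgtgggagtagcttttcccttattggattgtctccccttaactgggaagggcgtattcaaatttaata

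The core letters TGACNNNGC occurred in the 250 bases before the start for 10 of 47 members with such a window (21.3%), against 11.5% of 27025 genes. They were found for 2 of the 8 called members with a window, Gsta3 and Txnrd1, which differed in opposite directions. A gene was counted if any of its windows matched. The members had 68 windows for 47 genes, against 32851 for 27025, so the shares of genes given here are not like for like. In Gsta3 the match began at position -121 from the start. At Txnrd1 it began at position -92 from a start, within chr10:82859104-82859132 on the plus strand, where it stands on the opposite strand and is marked in capitals.
Txnrd1 site: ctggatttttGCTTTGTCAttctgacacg
The other members with a match were Ahcyl1, Gclm, Ggct, Ggt1, Gstm5, Mgst1, Mpst and Nfe2l2, none of them called. The core of the amino acid response element, TGATGNAA, bound by factors of the amino acid stress response, was found at Chac1, Got1, Slc7a11 and Sqor, 4 of 47 members (8.51%) against 3.91% of genes. A match of letters is a description of the reference sequence and no evidence of binding. Of the called members, Cth, Cdo1, Gstt2 and Prdx6 had no window in the table used.

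Several members moved with the keratocyte markers. The means of the endothelium and macrophage markers were low in the same 3 corneas, so a slope cannot be assigned to a single cell type. In a fit of strain and the keratocyte mean together, 5 of 56 members had a called slope on the keratocyte mean (8.93%), against 6.22% of all genes, so the share was close to the background. Of these, 4 rose with it and 1 fell, beside 4.84% and 1.38% of all genes. Gstt1, a theta class transferase, was 7.99, 7.11, 7.96 and 7.98 in BALB/c and 7.97, 8.17, 6.8 and 6.58 in C57BL/6N. Its 3 low values were those of the 3 stroma-poor corneas. Its slope was 0.52 log2 units for each unit of the keratocyte mean (standard error 0.0398, adjusted p = 9.4e-06 in limma), and the strain difference was 0.38 without the covariate and 0.03 with it. Gstp1, Gstm1 and Gpx1 likewise rose with the keratocyte mean, with slopes of 0.24, 0.18 and 0.1 (adjusted p of 0.00682, 0.00441 and 0.00726 in limma). Gsta4 fell with it, with a slope of -0.17 (adjusted p = 3.01e-05 in limma), and its 3 highest values, 16.54, 16.69 and 16.69, were those of the stroma-poor corneas. With this covariate 15 members were called, against 9.27% of all genes, and these were the 12 named above with Gpx1, Mgst3 and Suox.

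**Figure D4:**
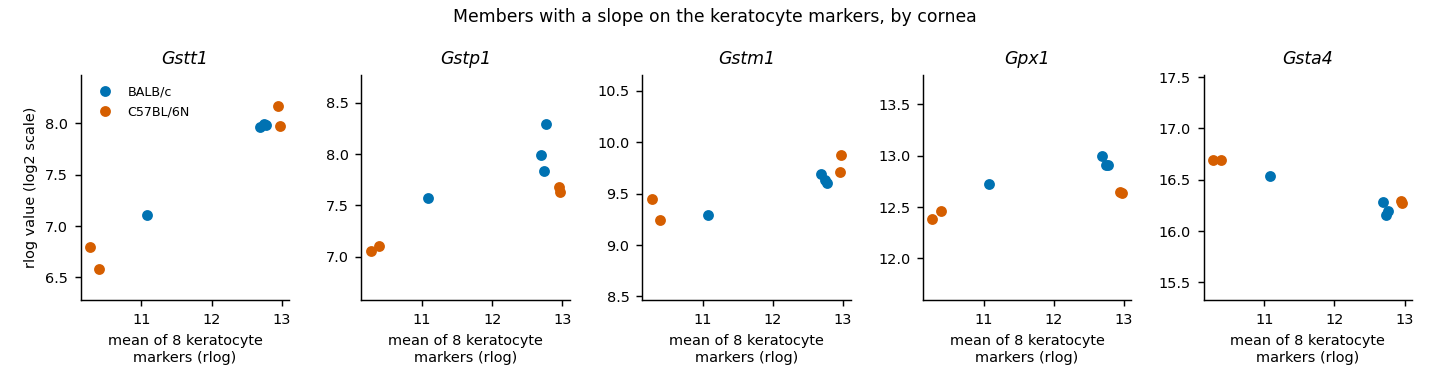
rlog value (log2 scale, vertical axis) of the 5 members with a called slope against the mean rlog value of 8 keratocyte markers (horizontal axis) in each BALB/c (blue) and C57BL/6N (orange) cornea. The 3 stroma-poor corneas form the left-hand group, low for Gstt1 and high for Gsta4; the right-hand group holds the other 5.

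Other genes of these pathways, from a list of 85 drawn up by pathway, were read from the same fit. Of the 81 tested, 9 were called (11.1%), against 5.74% of all genes, with a median difference of 0.07. BALB/c was higher for 6 and lower for 3, beside 2.83% and 2.91% of all genes. In methionine salvage and polyamine synthesis, which recycle the sulfur of S-adenosylmethionine, 4 of 9 genes were called (44.4%). Odc1, the ornithine decarboxylase that starts polyamine synthesis, and Mri1 were lower, with differences of -0.86 and -0.63. Apip and Adi1, which with Mri1 carry the salvage of methylthioadenosine back to methionine, were higher, with differences of 0.54 and 0.57. Odc1 measured 10.77, 10.78, 10.71 and 10.5 in BALB/c and 11.37, 11.6, 11.57 and 11.64 in C57BL/6N, without overlap.

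Folate metabolism, which supplies the methyl group for Mtr, held 1 called gene of 10. Mthfd1l, the mitochondrial formyltetrahydrofolate synthetase, was higher with a difference of 1.07 (adjusted p = 0.00476 in limma). Of the genes for transport and cleavage of cysteine, taurine and glutathione, only Ggt7 of 16 was called (6.25%, beside 5.74% of all genes). Ptges, a prostaglandin E synthase that uses glutathione, and Glo1, a glyoxalase that does so too, were higher by 0.91 and 0.78. They were 2 of 15 further transferases, peroxidases and related enzymes (13.3%, beside 5.74% of all genes). Glo1 ranged from 10.47 to 10.75 in BALB/c and from 9.78 to 9.89 in C57BL/6N. Sod1, the cytosolic superoxide dismutase, was higher by 0.58. It was the only call of 18 peroxiredoxins, thioredoxins, glutaredoxins, dismutases and catalase (5.56%), a share also close to that of all genes. None of 13 regulators of NRF2 and suppliers of NADPH was called, with differences between -0.3 and 0.49.

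**Figure D5:**
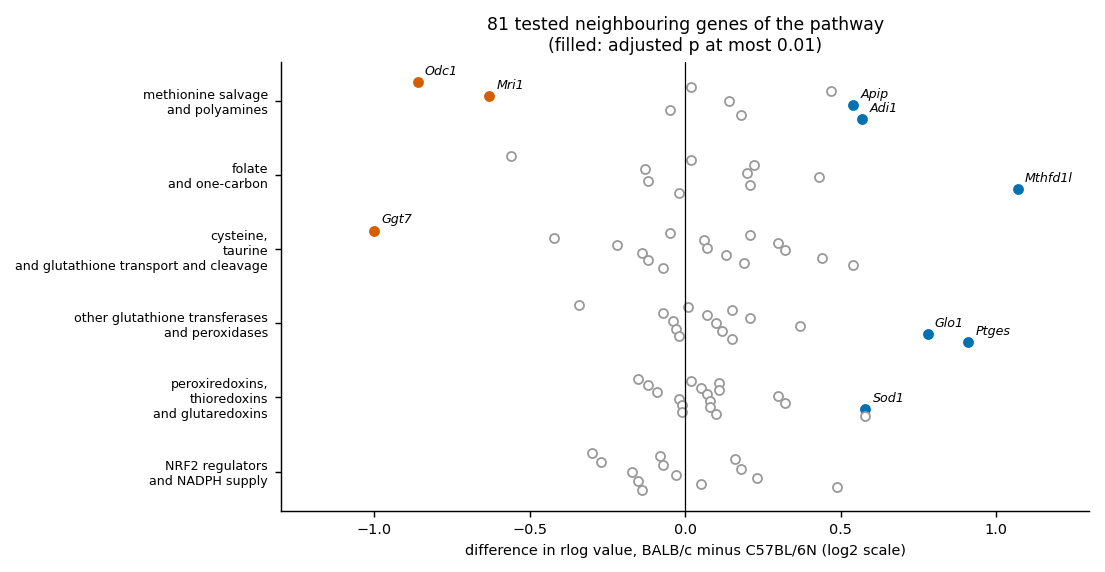
Difference in rlog value between BALB/c and C57BL/6N corneas (log2 scale) for 81 tested genes of neighbouring pathways, 1 row for each list, spread vertically within a row for legibility. The 9 filled and named points are the called genes, from Ggt7 at -1.0 to Mthfd1l at 1.07.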

How the data were processed

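RNA of 8 corneas was sequenced as strand-specific libraries. The authors trimmed the reads, removed ribosomal and transfer RNA reads, aligned the rest with TopHat2 2.1.1 to a pseudo-genome of each strain made from GRCm38, converted the alignments back, counted reads per Ensembl gene over all its exons with HTSeq 0.7.1, and made rlog values with DESeq2 1.30. The values the authors deposited are these rlog values on a log2 scale, normalised for library size; read counts were not used here. All columns were mapped to a cornea by the labels, and 0 were left unused.

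The comparison of strains used limma 3.58.1 in R 4.3.3, with the prior variance allowed to follow the mean. It took in the 25402 genes whose rlog values averaged 0 or more, and p-values were adjusted over all of them by the method of Benjamini and Hochberg. Genes were called at an adjusted p of 0.01 or less, the threshold of the study. Exact two-sided permutation tests used scipy 1.17.1, and tables and plots Python 3.11.15, pandas 2.3.3, numpy 2.4.6 and matplotlib 3.10.9. The keratocyte covariate was the mean rlog value of 8 marker genes. Near-identical copies were sought among annotated transcripts as matches of at least 95% identity over at least 200 bases, and 15 members had one. Some matches were short stretches shared with another gene and not copies of the member. Such a match can take or lend reads in counting. Symbols and positions came from a GRCm38 annotation, which named 54495 of the 54532 genes, and promoter windows from RefSeq (GRCm38.p6).

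All members were accounted for by role. Values in each cornea were given for called members and for the member of each group with the largest absolute difference, and the called genes of the neighbouring pathways were named. A gene of a neighbouring pathway was left out of the lists and is not reported here. Values of other members were added after they were seen. The members, the lists and these rules were chosen with earlier results of these data known. Alternatives were a constant prior variance, a robust prior, no filter or one at log2(10), median centring, quantile normalisation, recalibrated p-values, a block for the replicate number, the keratocyte covariate, leaving out each cornea, and an adjusted p of 0.05. Leaving out the stroma-poor corneas or those with lens and pigment transcripts, the slopes on the keratocyte mean, the copies and the motif searches were chosen after seeing the data. The fit was tested on simulated data.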

Additional observations from a re-analysis of the deposited data

Results flagged for a closer look

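In 8 of the 112 groups of 4 corneas, 1 cornea lay far from the others of its strain by Dixon's criterion. Chance flags about 1 in 20 groups, so 5.6 of 112. C57BL/6N replicate 1 was the cornea concerned for 4 members. It was highest for Cbs at 7.52, where the other 3 rounded to 7.26, for Bhmt at 2.16 against 2.14, and for Gstp2 at 0.48 against 0.43, and lowest for Ahcyl1 at 11.44 against 11.48. BALB/c replicate 2, a stroma-poor cornea, was highest for Ggct at 8.59 against 8.23 and lowest for Gstt1 at 7.11 against 7.96. C57BL/6N replicate 3, another stroma-poor cornea, was lowest for Mat2a at 12.12 against 12.35. C57BL/6N replicate 2 was highest for Srxn1 at 8.95 against 8.78. The gaps of Ahcyl1, Bhmt and Gstp2 were at most 0.05 log2 units.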

How the results depend on the processing

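Of 1115 values of single members under the alternatives, 981 kept their direction and side of the threshold, 88 lost the call, 8 gained it and 38 changed sign. The changes of sign were in 17 members that were not called. No pairing by replicate number was seen, as deviations of same-numbered corneas correlated at 0.305, -0.53, -0.203 and -0.454. The strain comparison over all genes called 1458 genes. With the number as a block, 554 genes, 5 members (1 higher, 4 lower; 3 without Cbs and Cth) and 2 related genes were called. With median centring, which moved the median over all genes from 0.01 to -0.07, 958 genes and 6 members (2 higher, 4 lower; 4 without Cbs and Cth) were called. Quantile normalisation called 1443 genes and left 3 members higher and 7 lower, against 5 and 7. The empirical null (SD 1.68) called 0 genes, 0 members and 0 related genes. The keratocyte covariate called 2354 genes, and an adjusted p of 0.05 called 2842, with 14 related genes. Without the stroma-poor corneas the calls were 852 genes, 4 members (1 higher, 3 lower; 3 without Cbs and Cth) and 6 related genes. Without the 2 lens and pigment corneas they were 447 genes, 3 members (0 higher, 3 lower; 2 without Cbs and Cth) and 4 related genes. Leaving out 1 cornea gave 953 to 1163 genes, 5 to 10 members, 2 to 4 higher, 3 to 6 lower, 4 to 8 without Cbs and Cth, and 6 to 9 related genes. The lowest counts of members came without BALB/c replicate 3 (5), BALB/c replicate 4 (6), C57BL/6N replicate 4 (6) and BALB/c replicate 2 (7). These fits had fewer corneas, and the cause of the other changes was not tested.

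Signs changed as follows. With the keratocyte covariate Mat2b was at 0.00182 and Hmox1 at -0.02. Median centring put Ahcyl1 at -0.04, Gclc at -0.02, Ggct at -0.03, Ggt1 at -0.04, Gpx2 at -0.07, Gstp2 at -0.05 and Nfe2l2 at -0.06. Quantile normalisation put Ggct at -0.01 and Gpx2 at -0.01. Without the stroma-poor corneas Mat2b was at 0.0036, Gsr at -0.02, Ggct at -0.04 and Gstt1 at -0.09. Without the lens and pigment corneas Bhmt was at -0.01, Bhmt2 at -0.04, Ggt1 at -0.1, Gpx3 at -0.36, Mgst1 at -0.26 and Hmox1 at -0.18. Leaving out 1 cornea, Mat2b ranged from -0.05 to 0.02, Ahcyl2 from -0.1 to 0.02, Gclc from -0.02 to 0.11, Ggct from -0.05 to 0.08, Ggt1 from -0.07 to 0.1, Gpx2 from -0.02 to 0.05, the Gpx3 difference from -0.00488 to 0.7, Gstm1 from -0.13 to 0.09 and Hmox1 from -0.02 to 0.23. Depth was unknown, so no value has a counting interval.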
